A study of Zea mays with 36 samples.

Results

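Leaf and root of maize plants that had been fed nitrate without interruption differed in the transcript level of 55.5% of the genes compared, and the difference is described here gene by gene. Leaf and root poly(A) RNA was sequenced from hydroponically grown seedlings of the inbred line B73, the line from which the maize reference genome was built. Transcript level is given in TPM (transcripts per 1000000), a length-corrected share of the transcripts of a library, so levels of different genes can be set side by side, and a level is always relative to the rest of its library. The genes compared were the 24892 of 43459 gene models that reached at least 1 TPM in at least 3 of 6 libraries, namely 3 leaf libraries and 3 root libraries harvested at 0 h, the normal-nitrogen sample taken before nitrate was withdrawn. These are 6 of the 36 libraries of a time course. The rest sampled the same tissues 0.5 h, 3 h and 24 h into nitrogen deprivation, and then at 24.5 h and 48 h with nitrate given back.

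At 0 h the leaf group and the root group had the same genotype and treatment, the inbred B73 grown for 12 days in nitrate-sufficient solution under a cycle of 16 h light and 8 h dark. The leaf group was the second and the third fully developed leaf of each plant, and the root group was a mixture of seminal and crown roots. Both are whole organs with many cell types, and each library was made from a pool of plants, so a library carries no plant-to-plant spread of its own and p-values measure the spread between pools. In such bulk samples, fewer cells of a type and less RNA per cell cannot be told apart.

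Roots take up nitrate and ammonium from the solution, reduce part of the nitrate on the spot and send the rest upward in the xylem. Nitrate reductase and nitrite reductase turn nitrate into ammonium, and glutamine synthetase and glutamate synthase (GOGAT) build ammonium into glutamine and glutamate. In the leaf these steps draw on electrons and carbon from photosynthesis, which in maize is of the C4 type, whereas in the root they draw on reductant from the oxidative pentose phosphate pathway.

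Marker genes matched the labels of both tissues. The summed level of 20 leaf markers (light-harvesting and photosystem genes, LHCB5 and PPDK2) was 20071 to 23122 TPM in the leaf libraries, against 43.2 to 62.0 TPM in the root libraries, where 9 of the 20 reached 1 TPM in all 3 libraries and 2 were listed at 0 in all 3. The summed level of 9 root markers (Casparian strip membrane proteins, MYB36, SHORT-ROOT, NRT2.1, NRT2.2 and NAR2.1) was 0.217 to 2.24 TPM in leaf, where none reached 1 TPM, against 57.0 to 69.2 TPM in root. Leaf libraries held 20367 to 21132 genes at 1 TPM or more, and root libraries 24160 to 24286. The 100 most abundant genes took 28.6 to 29.6% of all TPM in leaf, against 15.2 to 15.4% in root. TPM keeps no record of read number, so sequencing depth is unknown.

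Leaf library 1 stood apart from the other leaf libraries in its level of root-abundant transcripts. Over 209 genes with at least 100 TPM in root and at least a 16-fold lower mean in leaf, the summed level was 2512 TPM in leaf library 1, 932 TPM in leaf library 2 and 804 TPM in leaf library 3, and 200 of the 209 genes were highest in library 1. The median of these genes was 3.36%, 0.869% and 0.601% of their root level in leaf libraries 1, 2 and 3. In the opposite direction, 498 leaf-abundant genes stood at a median of 0.743%, 0.777% and 0.858% of their leaf level in root libraries 1, 2 and 3. The part of root-abundant RNA in leaf library 1 in single results was not tested, and values without that library are given wherever it moved a fold change by more than 1.5 times. Without it, 3476 of 3538 leaf calls (98.2%) and 10157 of 10281 root calls (98.8%) were also made.

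Of the 24892 genes, 3538 were higher in leaf and 10281 were higher in root, which is 14.2% and 41.3% of the genes tested and 55.5% together. A gene was called different where the fit of log2(TPM + 1) with limma gave a Benjamini-Hochberg adjusted p below 0.05 with a log2 fold change beyond 1 in either direction, the fold change being leaf over root throughout. The excess of root calls rested partly on the TPM scale. The median log2 fold change of all genes tested was -0.71 on the deposited scale, -0.10 after median-of-ratios scaling and -0.14 after quantile normalization, and the share of calls that were higher in leaf was 25.6%, 42.9% and 44.4% on these 3 scales. Median-of-ratios scaling called 20.9% of the genes tested in leaf and 27.8% in root, and quantile normalization 20.7% and 25.9%. Calls made in the same direction on all 3 scales numbered 3536 for leaf and 5778 for root, 14.2% and 23.2% of the genes tested, and below a gene is said to hold on all scales where it is among them. The median of -0.71 and the shares of 14.2% and 41.3% are the background for each list below. Where the 6 library values of a gene are given, the leaf and root groups did not overlap unless an overlap is stated.

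**Figure D1:**
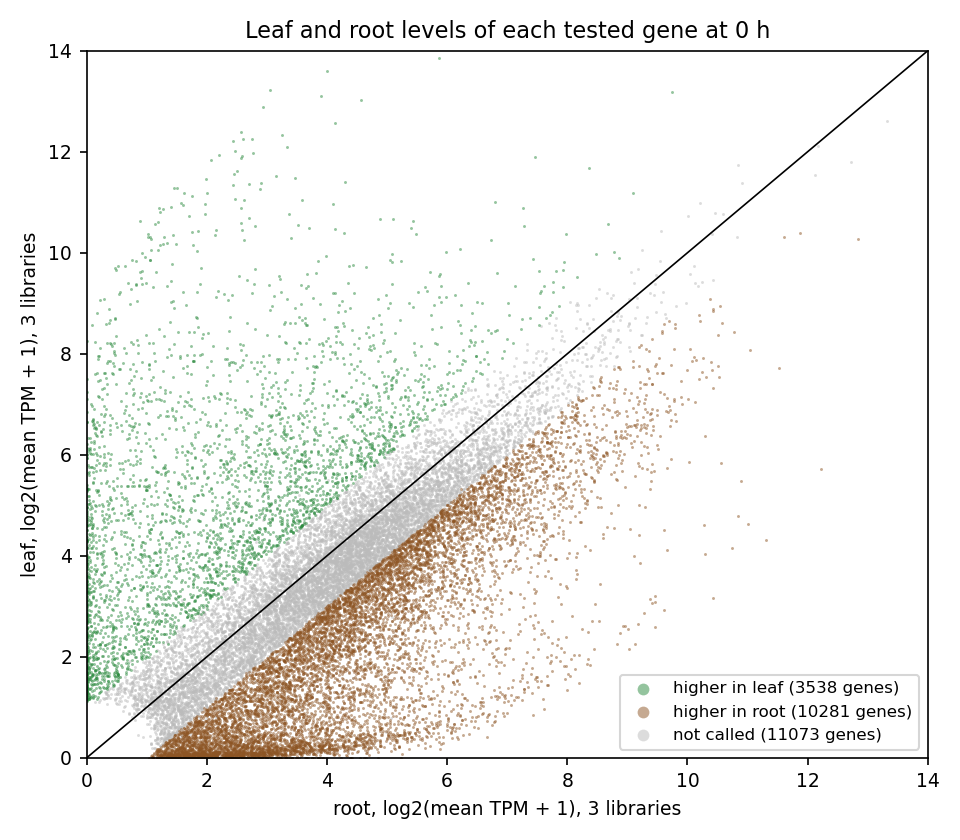
Mean level in leaf (y axis) against mean level in root (x axis), both as log2(TPM + 1) over 3 libraries each, for the 24892 genes tested, with the 3538 genes called higher in leaf and the 10281 called higher in root in colour and the others in grey. Points lie more often below than above the line of equal level, and calls higher in root are the more numerous.

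Most of the genes were detected at 1 TPM or more in both organs. In all, 17807 genes (71.5%) reached 1 TPM in all 6 libraries, and of these 2187 (12.3%) were higher in leaf and 5789 (32.5%) were higher in root. After median-of-ratios scaling 3684 of them were higher in leaf and 2960 higher in root, so which organ had more calls depended on the scale. A further 1032 genes (4.15%) reached 1 TPM in the 3 leaf libraries and in no root library, and 3591 (14.4%) in the 3 root libraries and in no leaf library. Genes of these last kinds entered the comparison only through the tissue in which they were higher, so their difference follows from the way they were selected and is given as a description. The remaining 2462 genes reached 1 TPM in some other set of libraries. At the edge of the selection, the 4830 genes with exactly 3 libraries at 1 TPM had a median level of 2.18 TPM over the 6 libraries, and the 1018 genes with 2 such libraries, which were left out, had 0.741 TPM.

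The genes of the light reactions were the most leaf-biased group. All 16 tested genes of the photosystems and light harvesting (of 18 listed) were higher in leaf, with a median log2 fold change of 8.41, and this count was the same on all 3 scales. 8 of the 16 reached 1 TPM in all 6 libraries, and all 8 were higher in leaf. Together the list took 1.87 to 2.16% of all TPM in leaf libraries, against 0.00420 to 0.00576% in root libraries.

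Plastocyanin (Zm00001eb379570), the copper protein that carries electrons to photosystem I, had 1588, 1454 and 1710 TPM in leaf, against 0.712, 0.82 and 1.05 TPM in root. Its log2 fold change was 9.74 ± 0.10 (SE, adjusted p = 2.8e-09, limma). Photosystem I subunit O (Zm00001eb083680) differed by 9.61 ± 0.17 and the minor antenna protein CP29.2 (Zm00001eb324090) by 9.59 ± 0.17. LHCB5, a minor light-harvesting protein of photosystem II at chr2:226115138-226117234, had 1397, 1295 and 1423 TPM in leaf, against 2.68, 1.12 and 4.1 TPM in root. For each of these genes the lowest leaf library lay far above the highest root library. Chlorophyll a-b binding protein 3 (Zm00001eb357740), singled out after its values were seen, was listed at 549, 0 and 341 TPM in leaf and failed the selection, and its level is uncertain because genes of this family can have near-identical copies.

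Genes below are from the described ones with the largest fold change or the highest level in leaf. Ferredoxin-2 (Zm00001eb260140), which accepts electrons from photosystem I, differed by 9.52 ± 0.28, with 1549, 1563 and 1555 TPM in leaf against 0.992, 0.39 and 2.41 TPM in root. A pair of genes annotated as thioredoxin M3, a plastid redox regulator, differed by 9.41 ± 0.17 (Zm00001eb138600) and 9.26 ± 0.20 (Zm00001eb409190). Photosystem I reaction center subunit III (Zm00001eb213670) was among the most abundant described leaf transcripts, at 6509, 5611 and 6094 TPM in leaf against 19, 11.8 and 18.6 TPM in root.

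Carbon fixation followed the light reactions. Of 9 tested genes of C4 fixation and the Calvin-Benson cycle, 8 were higher in leaf and 1 was not called, with a median log2 fold change of 6.79. Of these 9, 6 reached 1 TPM in all 6 libraries, 5 of them higher in leaf, and 2 reached it in the leaf libraries alone. Pyruvate, phosphate dikinase 1 (Zm00001eb287770, chr6:157076348-157086887), which regenerates the first CO2 acceptor of C4 photosynthesis, had 7239, 8869 and 8724 TPM in leaf, against 14.4, 26.7 and 27.3 TPM in root. Its fold change was 8.49 ± 0.23 (adjusted p = 3.06e-08, limma). The related gene PPDK2 (chr8:109319267-109324789) was far less abundant in leaf, at 85.6, 94.8 and 90.4 TPM, against 0.0746, 0 and 0.266 TPM in root. Phosphoenolpyruvate carboxykinase (Zm00001eb011080), one of the enzymes that release CO2 in the bundle sheath, had 3179, 2949 and 3265 TPM in leaf, against 2.95, 4.96 and 6 TPM in root. The cycle enzymes sedoheptulose-1,7-bisphosphatase (Zm00001eb147750) and chloroplast fructose-1,6-bisphosphatase (Zm00001eb011940) differed by 9.35 ± 0.21 and 8.86 ± 0.13.

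Of 7 tested genes of pigment and quinone synthesis and turnover, 6 were higher in leaf and 1 was not called (median 5.83). Of these 7, 5 reached 1 TPM in all 6 libraries, 4 of them higher in leaf, and 2 reached it in the leaf libraries alone. The cyclase that closes the fifth ring of chlorophyll, annotated as magnesium-protoporphyrin IX monomethyl ester cyclase (Zm00001eb332650), had 1269, 1111 and 1154 TPM in leaf, against 1.24, 1.43 and 1.88 TPM in root. Divinyl chlorophyllide a 8-vinyl-reductase (Zm00001eb039850) differed by 6.39 ± 0.13, and the phytyltransferase of phylloquinone synthesis (Zm00001eb006830) by 5.90 ± 0.14.

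Nuclear gene models whose descriptions name plastid-encoded proteins gave a mixed picture. 15 of 19 were higher in leaf and 4 higher in root, of which 15 and 1 held on all scales. Of the 19, 5 reached 1 TPM in the leaf libraries alone and 3 in the root libraries alone. Their difference follows from the selection. Of the 9 that reached 1 TPM in all 6 libraries, 8 were higher in leaf and 1 higher in root. Gene models for NAD(P)H-quinone oxidoreductase subunit K had 416, 394 and 437 TPM in leaf against 2.89, 2.43 and 2.44 TPM in root (Zm00001eb039090), while a model for ATP synthase subunit beta (Zm00001eb156500) had 42.2, 34.7 and 37.5 TPM in leaf against 137, 139 and 146 TPM in root. Such models can be near-identical to each other or to the plastid genome, so reads may be split between copies and these values are uncertain.

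**Figure D2:**
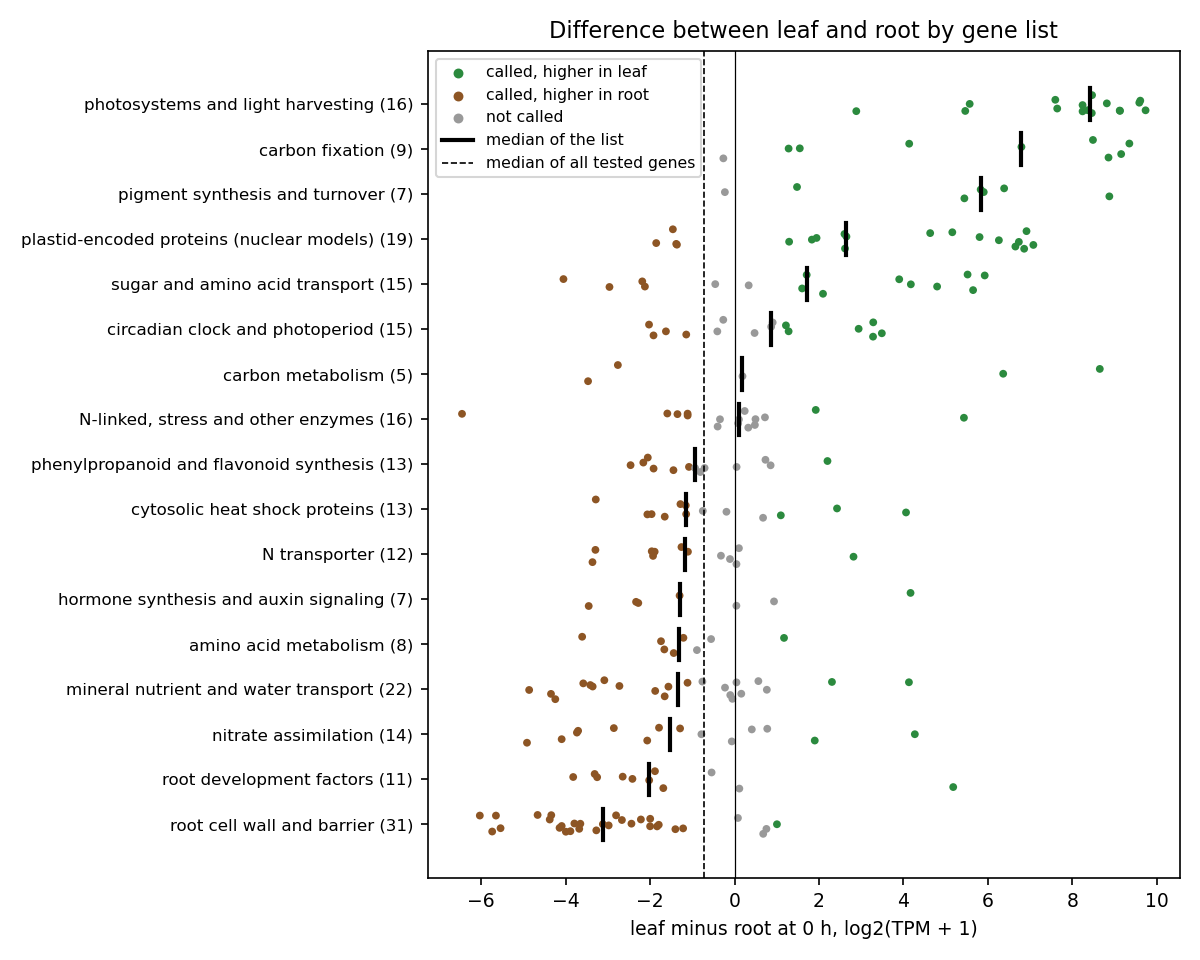
Log2 fold change, leaf over root, of every tested gene in each list (points), coloured by whether the gene was called higher in leaf, higher in root or not called, with the median of the list as a bar and the median of all genes tested, -0.71, as a dashed line. Photosystem genes lie entirely to the right with a median of 8.41, and root cell wall and barrier genes have the lowest median of the lists, -3.12.

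Genes of nitrate assimilation were split between the organs by gene copy. Of 16 listed genes 14 were tested, of which 2 were higher in leaf, 8 higher in root and 4 not called, with a median log2 fold change of -1.54. 11 of the 14 reached 1 TPM in all 6 libraries, 2 of them higher in leaf and 6 higher in root. After median-of-ratios scaling the counts were 4 and 7, and 2 and 7 held on all scales.

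The nitrate reductase genes differed in opposite directions. NR1 (chr4:58905750-58910788) had 349, 371 and 402 TPM in leaf, against 19.6, 16.3 and 19.5 TPM in root, and was higher in leaf by 4.27 ± 0.10 on the log2 scale (adjusted p = 1.55e-08, limma). NR2 (chr5:219126568-219130006) had 2.06, 0.944 and 1.24 TPM in leaf, against 28.6, 33.6 and 28 TPM in root, and was lower in leaf by a log2 fold change of -3.71 ± 0.19 (adjusted p = 6e-07). NR1 was the more abundant of both genes in every leaf library and NR2 in every root library. A further nitrate reductase gene, NR3, was at 0.746, 0.625 and 0.788 TPM in leaf and 1.27, 2.1 and 0.98 TPM in root and was not tested.

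For nitrite reductase, which acts in plastids, the leaf and root levels of NIR1 (chr4:183572704-183576240) lay close together, with 71.1, 74.9 and 77 TPM in leaf and 52.5, 60.8 and 54.3 TPM in root. The log2 fold change of 0.41 ± 0.09 (95% interval 0.21 to 0.61, adjusted p = 0.00248, limma) was under the fold limit on the deposited scale and passed it after median-of-ratios scaling. NIR2 had 12.5, 9.16 and 11.6 TPM in leaf, against 71.2, 101 and 89.4 TPM in root, a log2 fold change of -2.86 ± 0.16. The root ferredoxin-NADP reductase RFNR (chr1:291928862-291932344), which supplies reduced ferredoxin in non-green plastids, was lower in leaf by a wider margin. It had 28.9, 18.4 and 21.4 TPM in leaf, against 361, 431 and 414 TPM in root, a log2 fold change of -4.10 ± 0.16 (adjusted p = 1.66e-07). UPM1, of the pathway to siroheme, the cofactor of nitrite reductase, had 11.2, 8.97 and 7.91 TPM in leaf against 25.1, 24.2 and 23.3 TPM in root (-1.29 ± 0.14), a call lost on both other scales. UPM2, of the same pathway, had 29, 24.5 and 22.9 TPM in leaf and 44.6, 37.7 and 52.1 TPM in root, and was not called (-0.79, 95% interval -1.11 to -0.46).

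Cytosolic glutamine synthetase also divided by gene. GS1-3 (chr5:213469634-213472991) had 259, 306 and 264 TPM in leaf and 264, 300 and 303 TPM in root, and the groups overlapped (log2 fold change -0.07, 95% interval -0.30 to 0.17). GS1-1 (chr1:27921824-27924574) had 54.2, 54.2 and 39.7 TPM in leaf, against 547, 734 and 727 TPM in root, a log2 fold change of -3.73 ± 0.16 (adjusted p = 2.69e-07, limma). GS1-5 (chr9:152280165-152287977) had 2.99, 0.722 and 0.788 TPM in leaf, against 50.6, 86.3 and 74.4 TPM in root. Its log2 fold change of -4.92 ± 0.34 became -5.31 without leaf library 1, the highest of the leaf libraries for this gene. Thus one cytosolic isoform stood at like levels in both organs and the other two were root-biased.

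Among the glutamate synthase genes, GOGAT1 (chr7:180078786-180096656) was higher in leaf, with 292, 302 and 334 TPM in leaf against 71.4, 92 and 84 TPM in root (1.90 ± 0.11, adjusted p = 1.17e-06, limma). GOGAT2 and GOGAT3 were higher in root. GOGAT2 had 15.1, 13.3 and 16 TPM in leaf, against 52.8, 71 and 73.7 TPM in root (-2.07 ± 0.14). GOGAT3 had 21, 16.6 and 13.7 TPM in leaf, against 50, 67.3 and 66.4 TPM in root (-1.79 ± 0.17). The gene model Zm00001eb295220 of GOGAT4 was low in both organs, with 2.4, 2.0 and 1.87 TPM in leaf and 0.75, 0.818 and 0.844 TPM in root, and was called only on the other 2 scales. The second gene model of GOGAT4 was not tested.

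**Figure D3:**
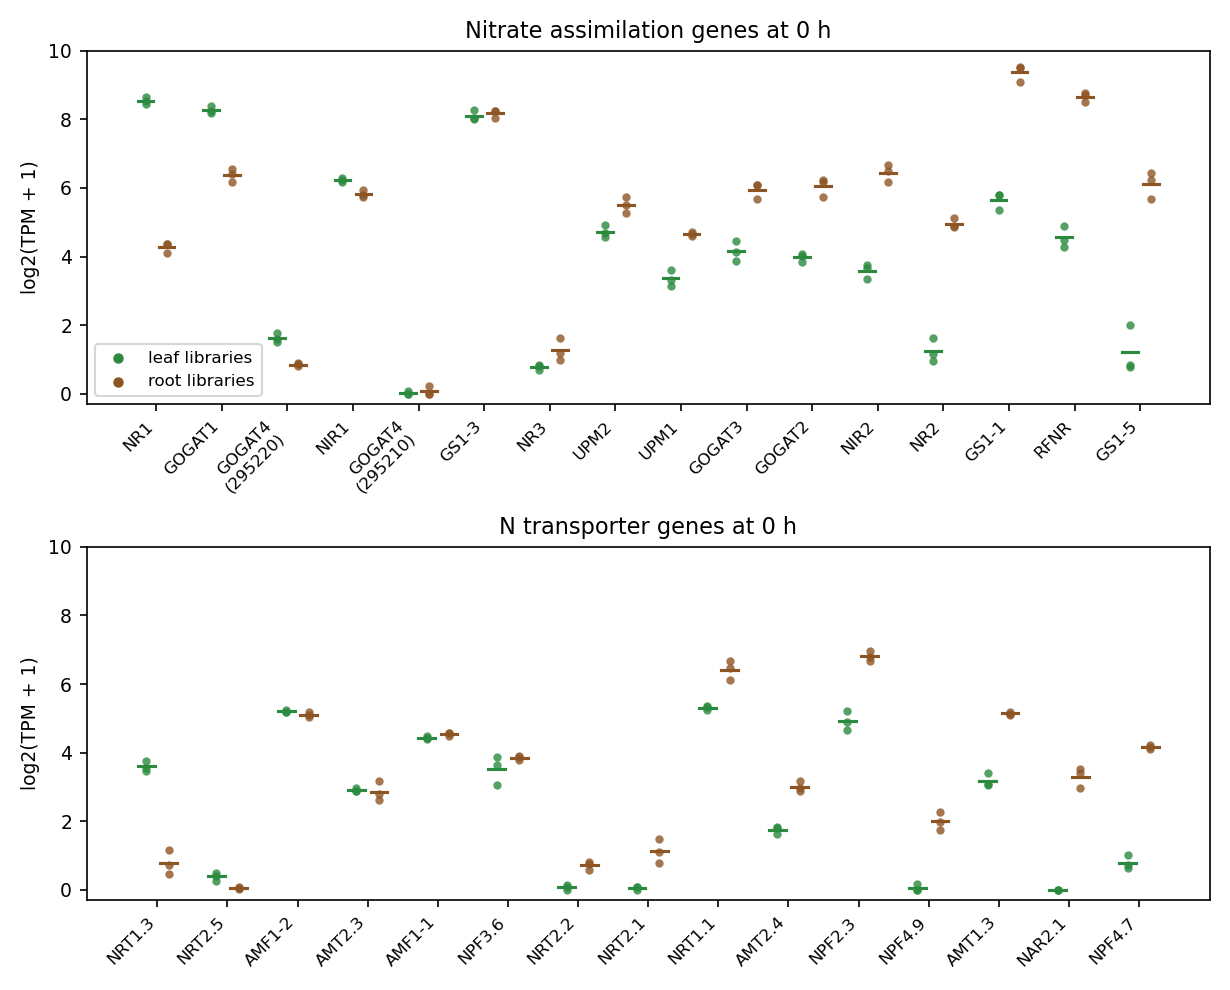
Level of the 16 nitrate assimilation genes and 15 nitrogen transporter genes, tested or not, on a log2(TPM + 1) axis, with 1 point for each of the 3 leaf and 3 root libraries and a bar at the mean of each tissue. Leaf points lie above root points for NR1, GOGAT1 and NRT1.3, below them for NR2, GS1-1, GS1-5 and RFNR, and among them for GS1-3.

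Nitrogen transporters were more often higher in root. Of 15 listed genes 12 were tested, of which 1 was higher in leaf, 7 were higher in root and 4 were not called (median -1.18), with 1 and 5 holding on all scales. Of the 12, 2 reached 1 TPM in the root libraries alone, so their difference follows from the selection. Of the 8 that reached 1 TPM in all 6 libraries, 0 were higher in leaf and 4 higher in root. NRT1.3 (chr5:181157547-181160675), a nitrate and peptide family transporter, was the leaf call, with 10.8, 12.6 and 10.1 TPM in leaf against 1.25, 0.374 and 0.65 TPM in root (2.82 ± 0.20, adjusted p = 4e-06, limma). NAR2.1, the partner protein that high-affinity NRT2 nitrate transporters need at the membrane, was listed at 0 in all 3 leaf libraries and had 6.89, 10.4 and 9.52 TPM in root. The NRT2 genes themselves were near the limit of the selection and were not tested. NRT2.1 had 0.0701, 0 and 0.0559 TPM in leaf, against 0.733, 1.16 and 1.77 TPM in root. NRT2.2 stood at 0.504 to 0.756 TPM in root, and NRT2.5 at 0.204 to 0.403 TPM in leaf.

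Of the listed transporters named NPF, 3 were called higher in root on the deposited scale. NPF4.7 had 1.04, 0.656 and 0.551 TPM in leaf, against 16.8, 17.8 and 16.2 TPM in root (-3.37 ± 0.15). NPF2.3 had 36.3, 24.1 and 28.7 TPM in leaf, against 109, 124 and 102 TPM in root (-1.89 ± 0.15), and NPF4.9 differed by -1.93 ± 0.16. NPF3.6 was not called (-0.32, 95% interval -0.80 to 0.16). NRT1.1, named for the dual-affinity nitrate transporter and sensor of Arabidopsis, had 39, 39.9 and 37.2 TPM in leaf, against 68.1, 101 and 87 TPM in root. Its log2 fold change of -1.11 ± 0.14 was not called on either other scale, and it was -0.97 without root library 2, the highest of the root libraries.

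Of the ammonium transporters, AMT1.3 (chr5:189353173-189354865) had 7.33, 9.66 and 7.42 TPM in leaf, against 33.3, 35.6 and 34.2 TPM in root (-1.96 ± 0.12, adjusted p = 1.88e-06, limma). AMT2.4 differed by -1.26 ± 0.15, a call lost on both other scales. AMT2.3 overlapped, with 6.3, 6.85 and 6.43 TPM in leaf and 5.1, 5.99 and 8.11 TPM in root (0.04, 95% interval -0.35 to 0.44). AMF1-1 (-0.11, 95% interval -0.32 to 0.10) and AMF1-2 (0.10, -0.09 to 0.30) were not called.

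Amino acid metabolism was on balance root-biased as deposited, with 1 of 8 genes higher in leaf and 5 higher in root (median -1.33), although 1 and 1 held on all scales. Glutamate dehydrogenase GDH2 (chr10:136652135-136656152), which can release ammonium from glutamate, had 11, 8 and 6.1 TPM in leaf, against 136, 90.2 and 111 TPM in root (-3.61 ± 0.21, adjusted p = 1.32e-06, limma). The asparagine synthetase gene ASN1 had 36.2, 33.3 and 30.7 TPM in leaf, against 103, 108 and 112 TPM in root, with a log2 fold change of -1.66 ± 0.09 that did not hold on all scales. The aspartate aminotransferase AspAT was the leaf call, at 10.5, 13.6 and 5.99 TPM in leaf against 4.83, 2.72 and 3.74 TPM in root. Its log2 fold change of 1.17 ± 0.29 fell under the limit, to 0.94, without leaf library 2.

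Of the 5 carbon metabolism genes, LHCB5 and PPDK2 were the leaf calls described above, and the other 2 calls were root-biased. G6PD1 (chr10:101506471-101512528), glucose-6-phosphate dehydrogenase at the entry of the oxidative pentose phosphate pathway, had 32.6, 27.6 and 28 TPM in leaf, against 200, 204 and 211 TPM in root (-2.76 ± 0.09, adjusted p = 6.81e-08, limma). The phosphoglucomutase gene PGM had 14.7, 13.9 and 8.55 TPM in leaf, against 145, 148 and 139 TPM in root (-3.47 ± 0.18). Among the N-linked, stress and other enzymes of the same gene network, 2 of 16 were higher in leaf and 5 higher in root (median 0.09, and 0.75 after median-of-ratios scaling, where 6 and 2 were called), and 3 were higher in root without root library 1. GLB1 (chr9:151555102-151556351) had the widest root bias of these, at 15.3, 3.88 and 4.24 TPM in leaf against 759, 696 and 532 TPM in root, and HAD2 the widest leaf bias, at 487, 489 and 547 TPM in leaf against 9.13, 11.8 and 11.6 TPM in root.

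Cell wall and barrier genes leaned to the root. Of 41 listed genes 31 were tested, of which 1 was higher in leaf, 27 higher in root and 3 not called (median -3.12), of which 1 and 24 held on all scales. 19 of the 31 reached 1 TPM in the root libraries alone and so had to differ. Of the 5 that reached 1 TPM in all 6 libraries, 1 was higher in leaf and 1 higher in root. By kind of protein, the calls higher in root were 12 of 12 tested germin-like proteins (extracellular proteins of the cupin family), 5 of 5 peroxidases, 3 of 3 laccases, 2 of 3 dirigent proteins and 2 of 2 xyloglucan enzymes. The single tested expansin, of 6 listed, was not called.

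Peroxidase 12 (Zm00001eb076180) had 2.84, 0.386 and 0.216 TPM in leaf, against 142, 99.7 and 126 TPM in root (-6.03 ± 0.40, adjusted p = 2.47e-06, limma). A pair of gene models for germin-like protein subfamily 1 member 8, Zm00001eb171600 and Zm00001eb171590, differed by -5.74 ± 0.37 and -5.65 ± 0.28, and their reads could be shared between near-identical copies. Dirigent protein 24 (Zm00001eb397370), of a family that directs the coupling of lignin and lignan precursors, had 1.47, 0.124 and 0 TPM in leaf, against 73, 58.3 and 63.2 TPM in root. In each of these genes leaf library 1 was the highest of the leaf libraries. Casparian strip membrane protein 5 (Zm00001eb424250), which scaffolds the diffusion barrier of the endodermis, had 0.645, 0 and 0 TPM in leaf, against 9.46, 7.3 and 11.5 TPM in root. The leaf call, CASP-like protein 1U2 (Zm00001eb113200), was at the limit (1.00 ± 0.24) and was lost without leaf library 1 (0.82), without leaf library 2 (0.93) and without root library 2 (0.84).

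Further genes among the most root-biased described ones, chosen for their fold change, follow as a description. Endochitinase EP3 (Zm00001eb078730), a chitin-cleaving enzyme, had 7.22, 1.2 and 0.294 TPM in leaf, against 319, 256 and 393 TPM in root (-6.80 ± 0.59). A glycine-rich cell wall structural protein (Zm00001eb289750) had 12.4, 0.925 and 0.37 TPM in leaf, against 382, 535 and 489 TPM in root (-7.15 ± 0.75). Leaf library 1 was again highest for both, and without it the log2 fold changes were -7.56 for the endochitinase and -8.16 for the glycine-rich protein, which stood at -6.52 without leaf library 3. The ethylene-forming enzyme 1-aminocyclopropane-1-carboxylate oxidase (Zm00001eb201390) differed by -6.22 ± 0.44, and by -6.81 without leaf library 1.

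In phenylpropanoid and flavonoid synthesis 1 of 13 tested genes was higher in leaf and 6 were higher in root (median -0.94), of which 1 and 4 held on all scales. Of the 13, 4 reached 1 TPM in the root libraries alone, so their difference follows from the selection. Of the 9 that reached 1 TPM in all 6 libraries, 1 was higher in leaf and 3 higher in root. The count in leaf was 2 without leaf library 3 or without root library 3. Without leaf library 1, 8 genes were higher in root and the median was -1.12. Caffeoyl-CoA O-methyltransferase 1 (Zm00001eb199490), an enzyme of lignin precursor synthesis, had 0.341, 0 and 0 TPM in leaf, against 5.28, 4.09 and 6.05 TPM in root (-2.46 ± 0.19). Phenylalanine ammonia-lyase 1 (Zm00001eb050970), which opens the pathway and was not part of that list, had 2.09, 0.143 and 0 TPM in leaf, against 72.6, 104 and 123 TPM in root (-6.02 ± 0.41). The leaf call was a putative cinnamyl-alcohol dehydrogenase (Zm00001eb088800), at 40.4, 41 and 24.5 TPM in leaf against 10.7, 6.17 and 4.47 TPM in root (adjusted p = 0.00018, limma).

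Of 22 tested genes of mineral and water transport 2 were higher in leaf and 12 higher in root (median -1.34, 2 and 9 on all scales). Of the 22, 5 reached 1 TPM in the root libraries alone, so their difference follows from the selection. Of the 17 that reached 1 TPM in all 6 libraries, 2 were higher in leaf and 7 higher in root. The S-type anion channel SLAH1 (Zm00001eb118730), which in Arabidopsis takes part in loading chloride into the xylem, had 0.979, 0 and 0.229 TPM in leaf, against 41, 36 and 37.8 TPM in root (-4.87 ± 0.24, adjusted p = 5.54e-07, limma). A plasma membrane intrinsic protein, that is a water channel of the cell membrane (Zm00001eb247760), had 39.6, 29.6 and 21.2 TPM in leaf, against 503, 588 and 784 TPM in root (-4.35 ± 0.24). Zinc transporter 1 (Zm00001eb071010) differed by -4.25 ± 0.24. The leaf calls were aquaporin TIP4-1 (Zm00001eb284350), a vacuolar water channel at 45.8, 65.4 and 86.7 TPM in leaf against 1.74, 1.93 and 5.32 TPM in root, and potassium transporter 5 (Zm00001eb048950), which differed by 2.31 ± 0.23.

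Carriers of sugars and amino acids showed the opposite balance, with 9 of 15 tested genes higher in leaf and 4 higher in root (median 1.71), all 13 of them on all scales. Of the 15, 5 reached 1 TPM in the leaf libraries alone and 2 in the root libraries alone, so that their difference follows from the selection. Of the 8 that reached 1 TPM in all 6 libraries, 4 were higher in leaf and 2 higher in root. The peptide transporter PTR2 (Zm00001eb152390) had 51.7, 71.2 and 67.2 TPM in leaf, against 0.158, 0 and 0 TPM in root (5.92 ± 0.16). The sugar transporter ERD6-like 6 (Zm00001eb344040) differed by 5.65 ± 0.19. SWEET9 (Zm00001eb170150), a bidirectional sugar carrier, was higher in root, with 0.203, 0 and 0 TPM in leaf against 15.4, 21 and 14.3 TPM in root (-4.05 ± 0.18). Genes annotated as probable amino acid permease 7 went both ways, 1 higher in leaf by 5.52 ± 0.15 (Zm00001eb366310) and 1 lower by a log2 fold change of -2.19 ± 0.17 (Zm00001eb264210).

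Of 11 tested regulators of root development 1 was higher in leaf, 8 were higher in root and 2 were not called (median -2.02), and 7 of the 11 had reached 1 TPM in the root libraries alone, so that their difference follows from the selection. The list as a whole took 0.00772 to 0.0101% of all TPM in leaf, against 0.00701 to 0.00894% in root, the leaf sum resting mainly on its 1 leaf call. SHORT-ROOT (Zm00001eb326020), which patterns the ground tissue around the stele, had 0.571, 0.217 and 0.0726 TPM in leaf, against 17.8, 17.4 and 15.8 TPM in root (-3.82 ± 0.17, adjusted p = 3.57e-07, limma). MYB36, in Arabidopsis the activator of Casparian strip genes, was represented by a pair of genes. One (Zm00001eb192770) was listed at 0 in all 3 leaf libraries and had 8.11, 9.42 and 9.37 TPM in root, and the other (Zm00001eb154560) differed by -3.26 ± 0.22. The leaf call was root phototropism protein 2 (Zm00001eb093890), a member of a light-signalling protein family, at 78, 68.5 and 93.5 TPM in leaf against 1.3, 1.01 and 1.36 TPM in root.

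Of 7 tested genes of hormone synthesis and auxin signaling, 1 was higher in leaf and 4 higher in root (median -1.30), 4 having reached 1 TPM in the root libraries alone. The ethylene precursor synthases ACS7 and ACS1 differed by -2.33 ± 0.27 and -2.28 ± 0.22, and ARGOS1, of a family that dampens ethylene responses, by -3.46 ± 0.22. LOG2 (chr3:227154196-227158026), named for the enzymes that release active cytokinin, was the leaf call, with 320, 347 and 295 TPM in leaf against 56.6, 10.4 and 7.62 TPM in root (4.17 ± 0.62, adjusted p = 0.000301, limma). Its root libraries were uneven, root library 1 standing far above the others, and without that library the log2 fold change was 5.01.

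Clock genes, whose levels cycle over the day, are given here at a single sampling time. Of 15 tested genes of the clock and photoperiod, 6 were higher in leaf and 4 higher in root (median 0.87), and 6 and 1 held on all scales. The 3 genes annotated as the morning factor LHY were higher in leaf by 3.28 to 3.49 on the log2 scale. MYBR79, which is one of them (chr4:34452072-34485595), had 343, 336 and 334 TPM in leaf, against 38.6, 32 and 31.2 TPM in root. An APRR1 gene (Zm00001eb247330), a relative of the evening factor TOC1 of Arabidopsis, had 1.28, 0.942 and 1.19 TPM in leaf, against 4.86, 9.81 and 9.36 TPM in root (-2.03 ± 0.24).

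Heat shock proteins and heat stress factors moved both ways, with 3 of 13 higher in leaf and 7 higher in root (median -1.15), and 3 and 3 on all scales. Of the 13, 1 reached 1 TPM in the leaf libraries alone and 2 in the root libraries alone. Of the 7 that reached it in all 6 libraries, 1 was higher in leaf and 5 higher in root. A pair of gene models for 17.6 kDa class I heat shock protein 2, a small chaperone, was higher in leaf. Zm00001eb124960 had 226, 270 and 293 TPM in leaf against 28.7, 8.88 and 12.2 TPM in root (4.06 ± 0.36). The mitochondrial 23.6 kDa protein (Zm00001eb193940) was higher in root, with 30, 23.7 and 9.61 TPM in leaf against 199, 192 and 195 TPM in root (-3.29 ± 0.34).

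Transcription factors as a whole followed the background. Of 481 transcription factor genes with a family in the study's clone collection, 435 were tested, of which 50 were higher in leaf (11.5% of those tested) and 185 higher in root (42.5%), with a median log2 fold change of -0.73 beside -0.71 for all genes. After median-of-ratios scaling 85 and 123 were called, and 50 and 103 held on all scales. The collection spanned 61 families, of which 17 had at least 8 tested members and are described here.

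The CONSTANS-like family (C2C2-CO-like), zinc finger proteins known from light and photoperiod signalling, was the one family of the 17 with a median on the leaf side as deposited. Of 9 tested members 6 were higher in leaf and 1 higher in root (median 3.74). In this family 4 members reached 1 TPM in the leaf libraries alone and 1 in the root libraries alone, so that their difference follows from the selection. Of the 4 that reached 1 TPM in all 6 libraries, 2 were higher in leaf and 0 higher in root. COL8 (chr5:11875687-11877438) had 116, 104 and 110 TPM in leaf, against 0.0448, 0.365 and 0.496 TPM in root (6.43 ± 0.16, adjusted p = 1.76e-08, limma). COL2 was listed at 0 in all 3 root libraries and had 37.8, 36.1 and 41.4 TPM in leaf. The exception was COL6, with 0.267, 0.258 and 0.181 TPM in leaf against 2.96, 3.56 and 4.66 TPM in root, a call that did not hold on all scales.

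The AUX-IAA family, repressors of auxin response, had the lowest median of the 17, -2.16, with 0 of 8 higher in leaf and 6 higher in root, 5 of them on all scales. The IAA15 gene Zm00001eb218860 (chr5:18671946-18673346) had 7.3, 2.23 and 2.54 TPM in leaf, against 84.1, 74.2 and 68.3 TPM in root (-4.06 ± 0.33). GATA factors were divided, with 2 of 9 higher in leaf and 5 higher in root. 2 of the 9 reached 1 TPM in the leaf libraries alone and 2 in the root libraries alone. Their difference follows from the selection. Of the 5 that reached 1 TPM in all 6 libraries, 0 were higher in leaf and 3 higher in root. GATA29 (chr9:85425797-85427738) and GATA15 were listed at 0 in every root library, and GATA29 had 61.5, 70 and 58.8 TPM in leaf. GATA28 had 0.553, 0 and 0.0589 TPM in leaf, against 21.3, 17.6 and 15.7 TPM in root (-4.01 ± 0.21). WRKY factors were called both ways as well, 7 of 23 in leaf and 10 in root, with 7 and 5 on all scales. Here 4 members reached 1 TPM in the leaf libraries alone and 5 in the root libraries alone, and their difference follows from the selection. Of the 12 that reached 1 TPM in all 6 libraries, 2 were higher in leaf and 4 higher in root.

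The 5 families with the most tested genes, the ungrouped orphan factors left out, were AP2-EREBP, NAC, bZIP, bHLH and MYB. Genes higher in leaf were 1, 2, 3, 2 and 0 in these families in that order, which is 2.04, 5.71, 7.89, 8.33 and 0% of their tested genes, beside 14.2% of all genes tested. Genes higher in root were 26 of 49 AP2-EREBP (53.1%), 18 of 35 NAC (51.4%), 15 of 38 bZIP (39.5%), 13 of 24 bHLH (54.2%) and 12 of 25 MYB genes (48.0%), beside 41.3%, and 15, 8, 8, 8 and 10 of them held on all scales. Members that reached 1 TPM in the root libraries alone numbered 15, 6, 2, 6 and 7 in the same order, and their difference follows from the selection. Among members at 1 TPM in all 6 libraries, 9 of 28, 8 of 25, 12 of 35, 7 of 17 and 5 of 17 were higher in root. The share over all genes at 1 TPM in all 6 libraries was 32.5%. Whether a family departs from these background shares was not tested. The medians of the bZIP, MYB, WRKY, MYB-related, HB, GRAS and Alfin-like families were negative as deposited and changed sign after median-of-ratios scaling, so no direction is given for these families. All 3 Alfin-like calls were lost on that scale.

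**Figure D4:**
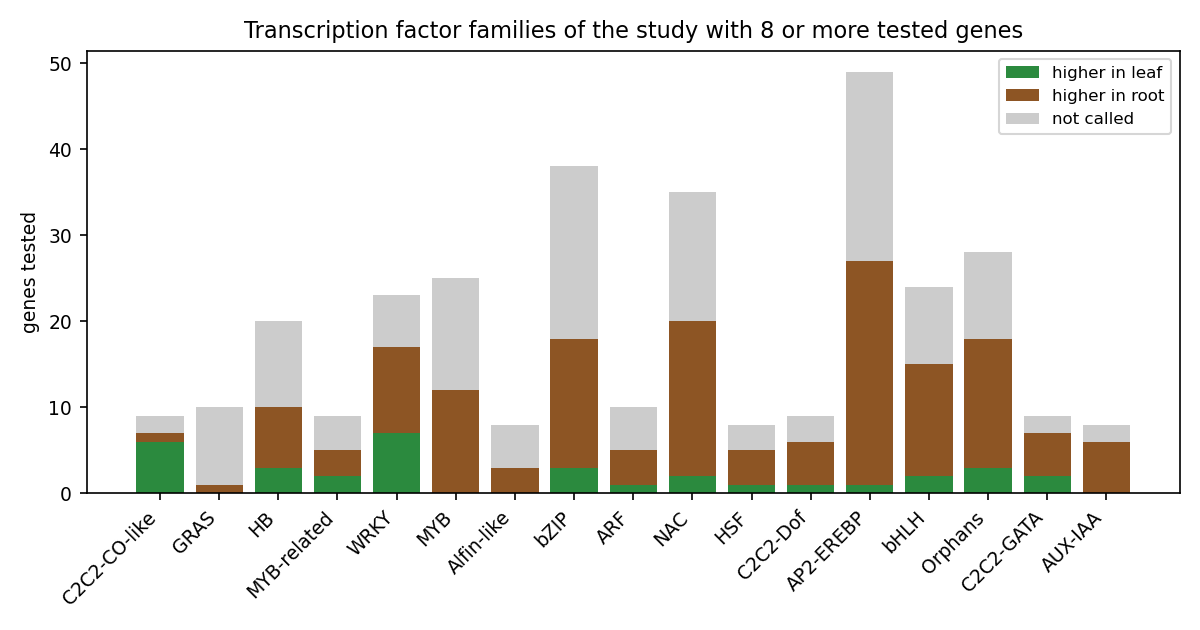
Number of tested genes (y axis) in each of the 17 transcription factor families with at least 8 tested members, stacked by call as higher in leaf, higher in root and not called, with families ordered by their median log2 fold change. C2C2-CO-like, on the left, has 6 of 9 genes higher in leaf, and AUX-IAA, on the right, has 6 of 8 higher in root.

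Single transcription factors are given by the size of their fold change among those with at least 10 TPM in the higher tissue. GLK57 (chr9:4108815-4111319), of the GLK family of which some members activate chloroplast genes, had 116, 114 and 127 TPM in leaf, against 0.109, 0.173 and 0 TPM in root (6.78 ± 0.12, adjusted p = 5.94e-09, limma). FHA9 differed by 6.13 ± 0.25, WRKY53 by 4.90 ± 0.22 and the homeobox gene HB38 by 4.72 ± 0.15. On the root side MYBR18 had 6.58, 3.16 and 3.59 TPM in leaf, against 204, 182 and 174 TPM in root (-5.16 ± 0.21, adjusted p = 2.26e-07, limma). The factors bZIP15 (-4.82 ± 0.32), bZIP24 (-4.62 ± 0.29), OFP33 (-4.49 ± 0.22), bZIP89 (-4.04 ± 0.19) and NAC82 (-3.91 ± 0.25) were also lower in leaf, with the IAA15 gene and GATA28 given above among the same 8 factors. For each of these 6 genes leaf library 1 was the highest of the leaf libraries.

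Some of the widest differences were in genes with no description. Zm00001eb383680 had 9232, 9649 and 9607 TPM in leaf, against 4.62, 4.97 and 12.2 TPM in root, and Zm00001eb388500 differed by 10.14 ± 0.59, or 9.34 without root library 1. On the root side Zm00001eb391690 had 52.7, 2.25 and 1.69 TPM in leaf, against 2186, 2472 and 2948 TPM in root (-8.34 ± 1.01), and its log2 fold change was -9.73, -7.71 and -7.58 without leaf libraries 1, 2 and 3. Zm00001eb023070 differed by -8.25 ± 0.87, by -9.41 without leaf library 1 and by -7.38 without leaf library 3.

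The described genes most abundant in leaf were the C4 enzymes and the photosystem I subunit given above, lipoxygenase 2 (Zm00001eb206040, log2 fold change 7.08 ± 0.16), a chloroplast enzyme of oxylipin synthesis, and non-specific lipid-transfer protein 11 (Zm00001eb406100), a secreted lipid carrier, at 4428, 3786 and 4221 TPM in leaf against 4.04, 3.85 and 5.74 TPM in root. The most abundant described genes in root were not root-specific. Acyl-CoA-binding domain-containing protein 6 (Zm00001eb415460) had 1752, 1708 and 1806 TPM in leaf and 1467, 1334 and 1416 TPM in root (0.32 ± 0.10), and SODIUM POTASSIUM ROOT DEFECTIVE 2 (Zm00001eb242690) differed by 0.71 ± 0.13, both under the fold limit. Calnexin (Zm00001eb084590), a chaperone of the endoplasmic reticulum, was lower in leaf by a log2 fold change of -1.90 ± 0.16. Named genes whose leaf and root levels lay closest on the deposited scale were ALF7 (log2 fold change -0.02, 95% interval -0.21 to 0.18), ALF2 (0.08, -0.10 to 0.25) and HB7 (0.02, -0.21 to 0.25). All of these intervals lay inside the fold limit of 1 in both directions.

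The contrast was repeated in the libraries of the other time points, which were not used at 0 h. Fitted on their own, the 6 libraries of each later time, in order from 0.5 h to 48 h, gave 14.2, 14.7, 15.3, 13.7 and 13.9% of genes higher in leaf, and 36.6, 33.4, 35.4, 35.5 and 30.6% higher in root. Of the 3538 genes higher in leaf at 0 h, between 2938 (83.0%, at 3 h) and 3219 (91.0%, at 24 h) were called the same way at a later time, and 2565 (72.5%) at all 5. Of the 10281 genes higher in root, between 7319 (71.2%, at 48 h) and 8508 (82.8%, at 0.5 h) were called the same way, and 6104 (59.4%) at all 5. Among calls that held on all scales at 0 h the order was the other way. These sets are unlike, because that condition kept 3536 of 3538 leaf calls but only 5778 of 10281 root calls. Median-of-ratios scaling moved the median log2 fold change from -0.71 to -0.10, so root calls near the fold limit dropped out. The remaining root calls had wider differences as deposited, so their share cannot be set against that of the leaf calls. In these sets, 2565 of 3536 leaf calls (72.5%) and 4949 of 5778 root calls (85.7%) were made at all 5 later times. Genes called the other way numbered at most 18 of the leaf calls and 23 of the root calls, both at 3 h. All 16 photosystem genes were higher in leaf at each of the 5 times, and 25 or 26 of the 31 tested cell wall and barrier genes were higher in root.

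Whether the difference itself changed was tested against 0 h in a fit of all 36 libraries. The genes that changed their leaf-root difference numbered 381 (1.53%) at 0.5 h and 2529 (10.2%) after 3 h. They numbered 384 (1.54%) after 24 h, then 1570 (6.31%) at 24.5 h and 1336 (5.37%) by 48 h. Each of these tests shares the 0 h libraries. No plants kept in nitrate-sufficient solution throughout were sampled after 0 h. Nitrate supply, hour of sampling and plant age therefore cannot be told apart in any change from 0 h. The counts at 0.5 h and 24 h were unsteady, at 208 and 191 without root library 2 and at 238 and 191 without leaf library 2, and the count at 24 h was 238 without leaf library 3. The direction of change depended on the scale. At 3 h 1622 differences (6.52%) moved toward leaf and 907 (3.64%) toward root as deposited, whereas after median-of-ratios scaling 1014 moved toward leaf and 1396 toward root.

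In nitrate assimilation the leaf bias of NR1 shrank. Its leaf-root difference on the log2 scale was 4.27 at 0 h and 1.09 at 3 h, a change of -3.18 ± 0.51 (adjusted p = 5.11e-05, limma), with mean levels of 20.4 TPM in leaf and 8.75 TPM in root at 3 h. At 24.5 h, shortly after nitrate was given back, NIR1 was higher in root, with mean levels of 24.6 TPM in leaf and 64.1 TPM in root and a difference of -1.34 beside 0.41 at 0 h (change -1.74 ± 0.54, adjusted p = 0.0315). This change of NIR1 kept its call under 7 of 12 alternatives, with adjusted p between 0.0181 and 0.0622, and lost it without leaf library 2 or 3 or any 1 of the root libraries at 0 h. AMT1.3 became more root-biased at 3 h, with a difference of -4.06 beside -1.96 at 0 h, and NRT1.3 lost its leaf bias at 24.5 h, with a difference of 0.33 beside 2.82 at 0 h (change -2.49 ± 0.31, adjusted p = 4.16e-05). NPF3.6, not called at 0 h, was higher in root at 0.5 h by a log2 difference of -2.37 (change -2.04 ± 0.36, adjusted p = 0.00167).

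**Figure D5:**
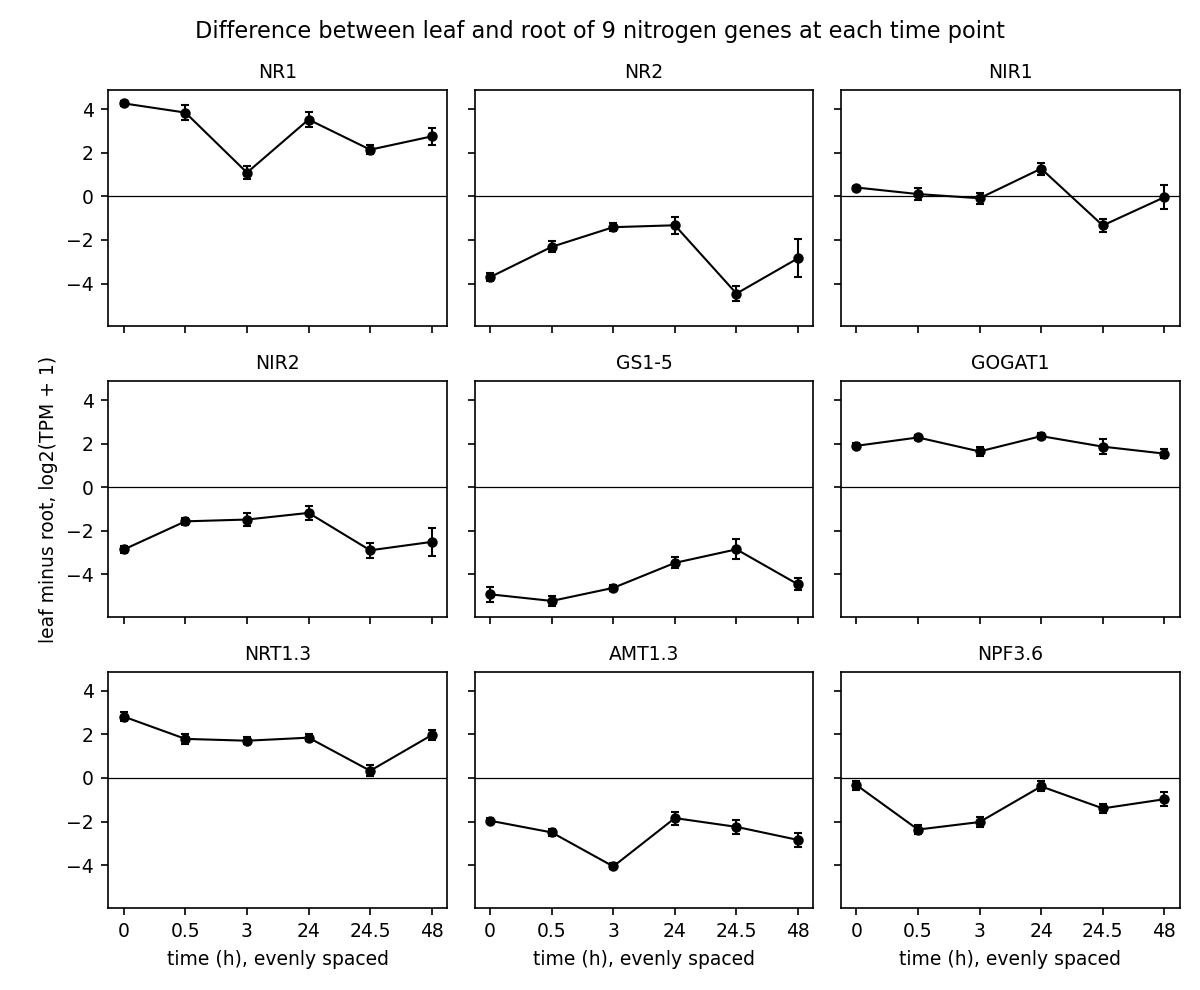
Leaf-root difference (log2 fold change, leaf over root, with bars of 1 SE from each time point's own fit) of 9 nitrogen genes at the 6 sampling times, in order from 0 h to 48 h and evenly spaced. The difference of NR1 drops to 1.09 at 3 h from its level at 0 h, and NIR1 crosses to the root side at 24.5 h.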

How the data were processed

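Leaf and root RNA of B73 maize was profiled by poly(A) RNA sequencing in 36 libraries, 3 per tissue and time point. The labels and the methods differ on nutrient solution, library kit, sequencer and pool size. The authors aligned reads to the B73 version 5 genome with STAR and estimated transcript abundance with StringTie, and the deposited values are TPM per gene model, 1 table per tissue. Both tables list the same 43459 gene models and each library sums to 1000000 TPM, so the tables share a scale. TPM keeps no depth, so no count test or counting interval was used. One column of no sample was not used.

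Genes with at least 1 TPM in at least 3 of the 6 libraries at 0 h were fitted as log2(TPM + 1) with limma 3.58.1 (R 4.3.3, mean-variance trend, two-sided, no covariate). p-values were adjusted over all 24892 genes by the Benjamini-Hochberg method, and a call needed an adjusted p below 0.05 with a log2 fold change beyond 1 in either direction. Fold changes are on the log2(TPM + 1) scale, which understates the change of genes with low values, and no fold is given for a gene listed at 0 in every library of a tissue. Later time points were fitted the same way, and changes of the difference in 1 fit of all 36 libraries. The fit at 0 h was checked on simulated data with few changed genes and no general shift between the tissues. That check does not bear on the choice of scale. Median-of-ratios scaling and quantile normalization were run on the deposited TPM, and other alternatives were pseudocounts of 0.1 and 5, other filters, the call rule, leaving out each library, and a replicate block.

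The genes and lists were chosen with earlier results of these data known. Names, families, network processes and descriptions came from the study's supplementary tables, the descriptions only for genes it had called nitrate-responsive, so the described genes are not a random sample. Named genes were all those of the nitrate assimilation and transporter lists, and genes drawn from up to 3 of each other list in each direction by fold change, the 8 transcription factors and 10 described genes with the largest change in each direction (at least 10 TPM in the higher tissue), 2 without a description in each direction, the 5 most abundant described genes of each tissue and the 5 with the interval closest to 0. Casparian strip membrane protein 5 was named as a tissue marker. Coordinates are on Zm-B73-REFERENCE-NAM-5.0 from RefSeq, for the 436 of 556 genes with a version 3 identifier that matched 1 entry.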

Additional observations from a re-analysis of the deposited data

Results flagged for a closer look

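The leaf-root difference at 0 h and at a later time was compared by an interaction test in 1 limma fit of all 36 libraries, and 19 such changes of nitrate assimilation and nitrogen transporter genes passed it. Changes are given on the log2(TPM + 1) scale, a negative change being a shift toward root, and all tests share the 0 h libraries. Nitrate supply, hour of sampling and plant age cannot be told apart in these changes.

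At 0.5 h after nitrate withdrawal NPF3.6 changed by -2.04. At 3 h the shifts toward root were -3.18 for NR1, -2.13 for AMT2.3, -2.10 for AMT1.3, -1.70 for NPF3.6, -1.11 for NRT1.3 and -1.06 for AMT2.4, and NR2 shifted toward leaf by 2.29. At 24 h GOGAT2 shifted toward leaf by 1.36. At 24.5 h, after nitrate had been given back, the shifts toward root were -2.49 for NRT1.3, -2.12 for NR1, -1.74 for NIR1, -1.14 for NPF4.9, -1.08 for GS1-3 and -1.07 for NPF3.6, and the shifts toward leaf were 2.06 for GS1-5, 1.20 for GOGAT2 and 1.12 for NPF4.7. At 48 h NR1 was shifted by -1.51. The changes of NR1 at 48 h, NR2 at 3 h, GOGAT2 at 24 h and NPF3.6 at 24.5 h were not called on both other scales. Over 12 alternatives the call was lost in 8 for NR1 at 48 h and NPF3.6 at 24.5 h, in 6 for NR2 at 3 h and AMT2.4 at 3 h, in 5 for NIR1 at 24.5 h, in 4 for GOGAT2 at 24 h, in 3 for NRT1.3 at 3 h, in 2 for NPF4.9 at 24.5 h, and in 1 for GS1-5 and NPF4.7 at 24.5 h and AMT1.3 and NPF3.6 at 3 h. The other 7 changes kept their call in all 12.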

How the results depend on the processing

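No named gene reversed its direction among called results. The balance of some counts did reverse after median-of-ratios scaling. Examples were genes with 1 TPM in all 6 libraries, the N-linked, stress and other enzymes, and the changes of the difference at 3 h. Genes higher in root numbered 6453 after quantile normalization and 6491 with a pseudocount of 5, against 10281, while genes higher in leaf stayed within 1.5 times of 3538 under all alternatives run. Leaving out each library gave 3527 to 3557 genes higher in leaf and 10121 to 10466 higher in root. Of 2464 values of 138 named genes, 2404 kept their call. 9 uncalled named genes changed sign under some alternative. The 14-3-3 gene GF14 upsilon (Zm00001eb080570) gained a call without leaf library 2 (-1.02) or root library 1 (-1.02).

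Counts of genes whose leaf-root difference changed, in order of time from 0.5 h to 48 h, were 225, 1391, 243, 864 and 696 with a pseudocount of 5, and 684, 4840, 904, 3347 and 3440 by adjusted p alone. Leaving out each 0 h library gave 208 to 420, 2298 to 2496, 191 to 431, 1108 to 1703 and 1040 to 1482.

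No shared deviation by replicate number was seen: deviations of same-numbered leaf and root libraries correlated at 0.0068, 0.0051 and 0.0263. This cannot show whether same-numbered pools came from the same plants. With a replicate block 3542 genes were higher in leaf and 10296 higher in root, including all calls made without it, and 376, 2547, 380, 1564 and 1352 changed their difference at the 5 later times. Depth is unknown, so levels near the 1 TPM limit carry no counting error here.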
